A study of Populus tremula x Populus tremuloides with 22 samples.

Results

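A run of 43 gene models near the end of chromosome 13 of hybrid aspen is described here, between position 15567206 and position 15657495 of the deposited files, a distance of 90.3 kb. The members were all genes of this interval with at least 10 counts in 5 or more of the 22 libraries. Of 44 genes in the interval 43 met that minimum, out of 1043 on chromosome 13 and 25705 in all. The gene left out, Potri.013G138612, had 0 to 12 counts per library. The interval was selected on measured values, namely the fold changes of both overexpression constructs against wild type. Those fold changes are therefore given as a description with no test.

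The study sequenced poly(A) RNA of stem internodes from 3-week-old, greenhouse-grown hybrid aspen (a cross of Populus tremula and Populus tremuloides). Its 5 wild-type (WT) libraries stood beside 8 libraries of LBD4-OE and 9 of LBD11-OE, trees that overexpress Arabidopsis LBD4 or LBD11 in the xylem per the series title. Each construct was present as 3 lines, with 3 libraries each for LBD4-OE-11, LBD4-OE-17, LBD11-OE-1, LBD11-OE-2 and LBD11-OE-14, and 2 for LBD4-OE-14. The last LBD11-OE line carries the number 14 in its sample titles and 3 in its genotype label, and the title was followed. The labels do not name the promoter. Whether the replicates of a line are different trees is not stated, and p-values here cover the spread among libraries, which may be only technical.

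LBD4 and LBD11 belong to the LATERAL ORGAN BOUNDARIES DOMAIN family, plant transcription factors known from organ boundaries, lateral root formation and the vascular cambium. The cambium is the dividing cell layer that gives rise to wood on its inner side, and stem internodes hold it together with xylem, phloem and outer tissues. In RNA from such a mixture, fewer cells of a type and less RNA per cell cannot be told apart. The files pair no identifier of the run with a gene name, so the members are described by position, size and level and no function is given.

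Total counts ran from 23437445 to 41969957 per library. The 5 secondary wall cellulose synthase genes used as markers of developing xylem were at 149.5 to 2981 CPM (counts scaled to library size) in every library, and even the lowest of their medians, 252 CPM, exceeded 98.1% of the genes that met the count minimum. The 7 libraries of LBD4-OE-11, LBD11-OE-2 and WT replicate 3 stood apart from the other 15: 8 genes outside the run were lower by over 4-fold in all 7, and 0 were higher by that much. For 0 of the 43 members did those 7 libraries fail to overlap with the other 15. Over all genes only 17 were lower and 4 higher without overlap, so nothing is read from that 0. The edgeR comparisons between constructs and among lines are also given without these libraries. Levels, overlaps with WT and replicate orders are given only with them.

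The gene models of the run are short and densely packed. Their median span from start to end was 717 bp, against 3534 bp for all genes that met the minimum. Of the 43 members 11 span under 300 bp, as do 0.794% of all genes that met the minimum. The shortest is Potri.013G162900 with 102 bp and the longest Potri.013G143400 with 7786 bp. The interval held 48.7 genes per 100 kb, while the remainder of chromosome 13 held 8.65. On the plus strand lay 22 members and on the minus strand 21, with 14 changes of strand along the run, a median gap of 431.5 bp between neighbours and 3 overlapping neighbour pairs. The widest gap was 10.5 kb. The identifiers fall into separate number series, with the first 15 members numbered from Potri.013G161900 to Potri.013G163300 and the other 28 numbered out of order from Potri.013G136466 to Potri.013G143400. How reads shared with near-identical copies elsewhere, or with an overlapping model, were assigned is not given in the sources used here, and its part in these levels was not tested.

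Levels differed widely between members. The mean over all libraries ran from 0.234 to 97.9 CPM with a median of 6.84 CPM, and 7 members were under 1 CPM. Scaled by span, which includes introns, the WT level ran from 0.201 CPM per kb in Potri.013G137077 to 39.3 CPM per kb in Potri.013G138300. The median WT level per kb of span was 3.03 for the members and 3.90 for all genes that met the minimum. Per kb of span the members' median was 9.09 CPM in LBD4-OE and 14.6 CPM in LBD11-OE. Potri.013G162700 alone took 19.4% of all counts of the run and Potri.013G138300 took 9.27%.

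Added together, the 43 members gave 302.2, 114.7, 185.1, 196.7 and 116.1 CPM in the 5 WT libraries. In LBD4-OE-11 they gave 543.5, 788.3 and 1027 CPM, in LBD4-OE-14 264.7 and 272.8 CPM, and in LBD4-OE-17 151.9, 454.4 and 313.2 CPM. The LBD11-OE lines gave 910.3, 688.2 and 355.8 CPM for line 1, 1232, 723.1 and 504.0 CPM for line 2, and 562.5, 642.9 and 791.8 CPM for line 14. Every LBD11-OE and LBD4-OE-11 library lay above every WT library, LBD4-OE-14 lay within the WT range and LBD4-OE-17 spread from inside that range to above it. The mean was 183 ± 76.7 CPM in WT (SD, n = 5), 477 ± 298 CPM in LBD4-OE (SD, n = 8), and LBD11-OE reached 712 ± 254 CPM (SD, n = 9). The run thus held 0.0115% to 0.123% of the counts of a library.

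**Figure D1:**
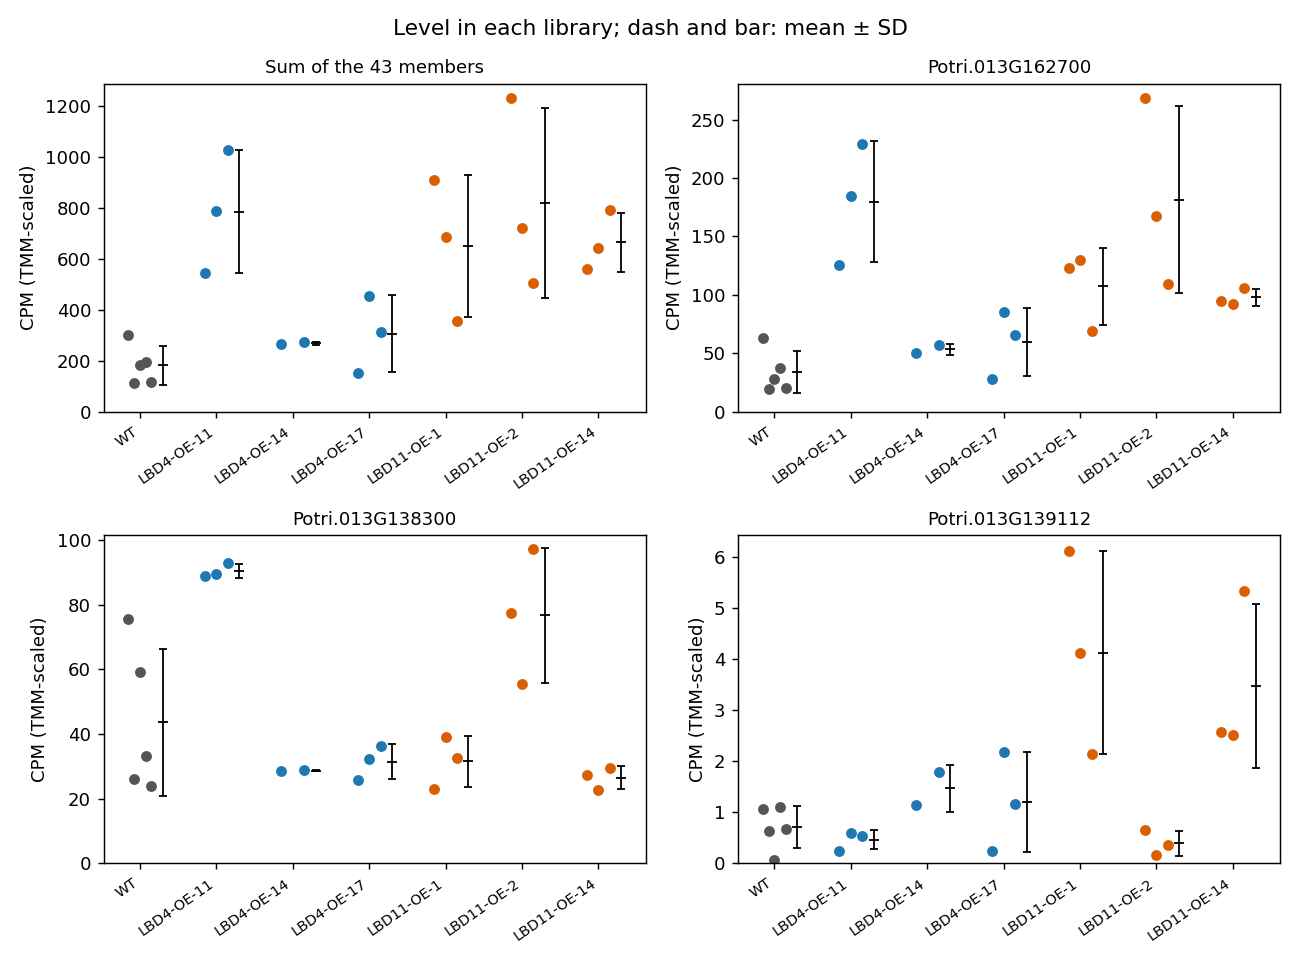
CPM with TMM-scaled library sizes (y axis) in each library by line (x axis) for the sum of the 43 members and for Potri.013G162700, Potri.013G138300 and Potri.013G139112, with points for libraries and a dash and bar for mean ± SD. The summed level of WT runs from 114.7 to 302.2 CPM and that of LBD11-OE from 355.8 to 1232 CPM, while Potri.013G138300 and Potri.013G139112 follow other patterns.

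All 43 members stood above WT in both constructs, a direction that the choice of the interval favours and that is therefore no result. The median log2 fold change was 1.65 for LBD4-OE minus WT (lowest 0.28, highest 2.25) and 2.45 for LBD11-OE minus WT (lowest 0.04, highest 3.05). The SE of a member's fold change was 0.50 at the median in both. Over all 25626 genes tested, the medians of these contrasts were below 0.01 in size. In LBD4-OE 23 of the 43 members had an adjusted p under 0.05 in edgeR, higher than WT, where 2.71% of all genes were called higher, and with the replicate number as a block 0 members had. In LBD11-OE 41 members were called higher, where 16.1% of all genes were. Both counts come from the contrasts that chose the members, so nothing is read from them. Both contrasts also share the 5 WT libraries. For 42 of 43 members the mean of LBD4-OE lay between those of WT and LBD11-OE, an order that 27.2% of all genes had. The exception was Potri.013G138300. The choice of the interval favours the part of this order that sets LBD4-OE above WT, so that share is no like background.

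Groups separated for LBD11-OE but not for LBD4-OE as a whole. Positions relative to WT rest on the values that chose the interval. The counts in this paragraph are therefore a description, and nothing is read from their excess over all genes. For 33 members every LBD11-OE library lay above the highest WT library, which held for 5.57% of all genes. For 0 members did every LBD4-OE library do so, against 1.10% of all genes. The mean of each of the 6 lines exceeded the WT mean for 36 members, against 19.8% of all genes. Of the other 7 members, 4 had 5 lines above WT (Potri.013G162100, Potri.013G137077, Potri.013G137688 and Potri.013G138100), 2 had 4 lines (Potri.013G163200 and Potri.013G139112) and Potri.013G138300 had 2.

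**Figure D2:**
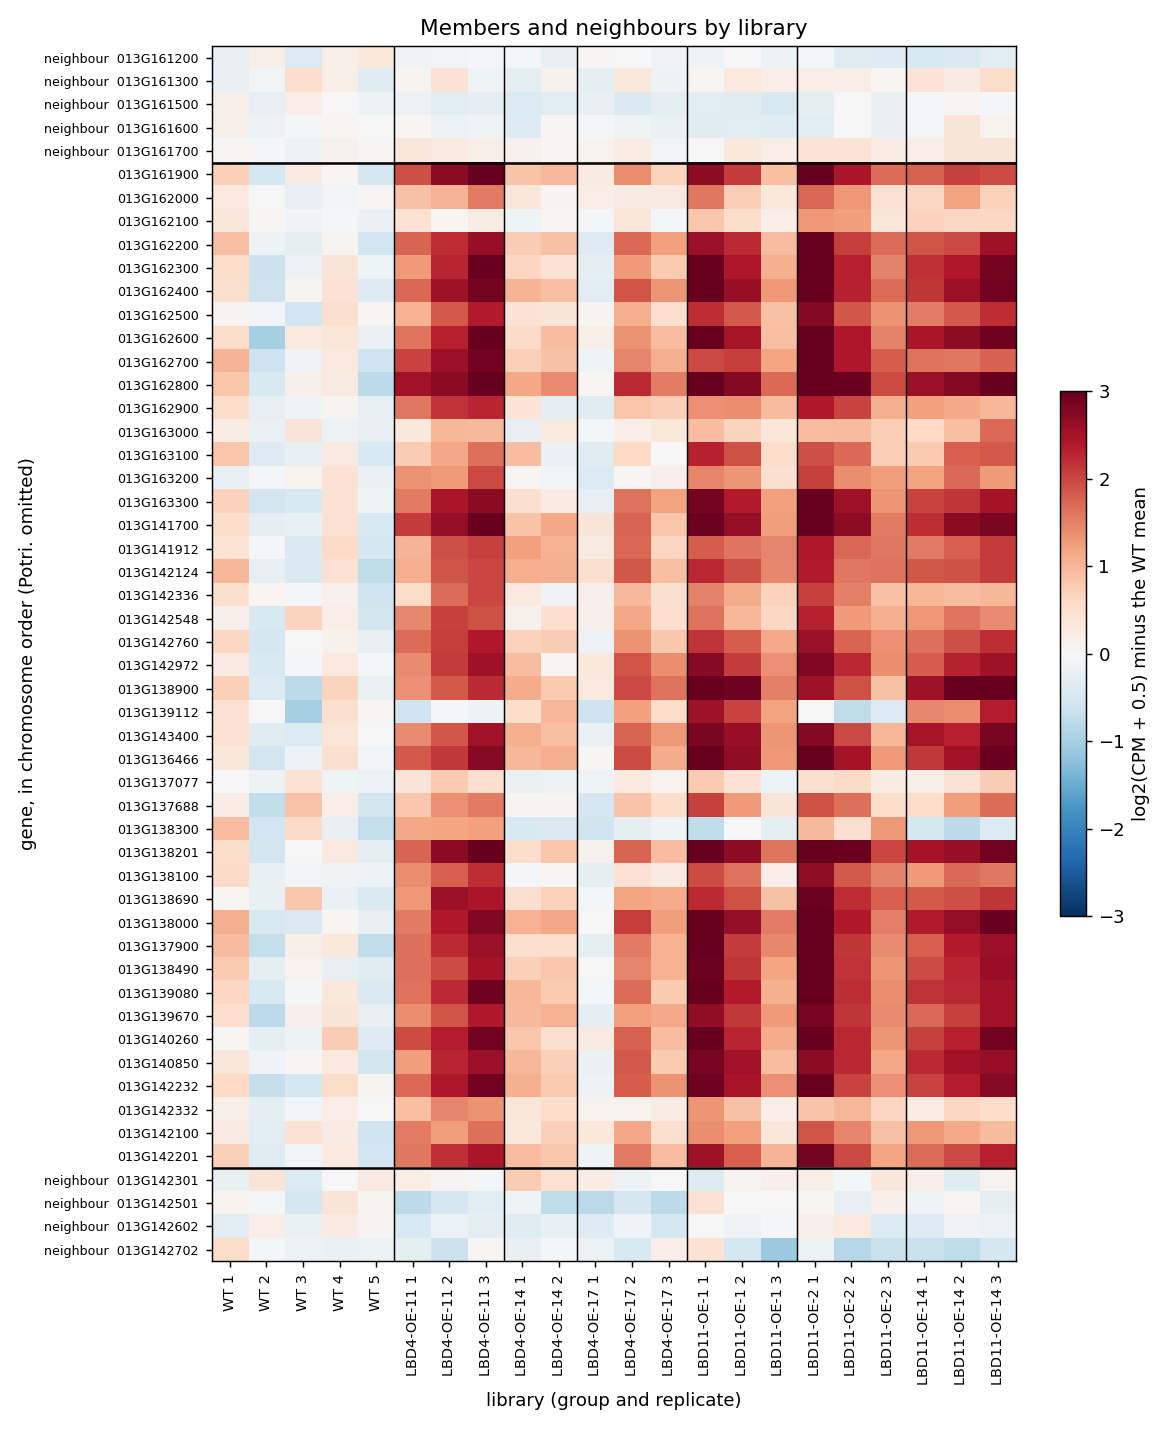
log2(CPM + 0.5) minus the WT mean (colour) for the 43 members and, outside the black horizontal lines, the 9 neighbours that met the count minimum (y axis, in chromosome order) in the 22 libraries (x axis). Most members share the same column pattern, dark in LBD11-OE and LBD4-OE-11, pale in LBD4-OE-14 and in LBD4-OE-17 replicate 1, whereas the neighbours do not share it.

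Fold changes fell at both edges of the run. Its limits were drawn from measured values, so this fall is given as values and is no result. On the left the outermost member, Potri.013G161900, had log2 fold changes of 1.97 (SE 0.55) in LBD4-OE and 2.44 (SE 0.55) in LBD11-OE. The nearest outside gene that met the minimum, Potri.013G161700, had 0.16 (SE 0.07) and 0.29 (SE 0.07). On the right the outermost member, Potri.013G142201, had 1.50 (SE 0.42) and 2.08 (SE 0.42), and the nearest outside gene, Potri.013G142301, had 0.21 (SE 0.18) and 0.01 (SE 0.18). No gene of the files lay within 14.5 kb to the left or 9.3 kb to the right of the run. The 5 neighbours on the left and the 4 on the right, all that were left before the last gene of the chromosome 35.8 kb away, ranged up to 0.21 in LBD4-OE and up to 0.29 in LBD11-OE. The lowest of them in LBD4-OE was Potri.013G142501, at -1.11 (SE 0.29), which had -0.02 (SE 0.28) in LBD11-OE. The lowest in LBD11-OE was Potri.013G142702, at -0.66 (SE 0.27).

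**Figure D3:**
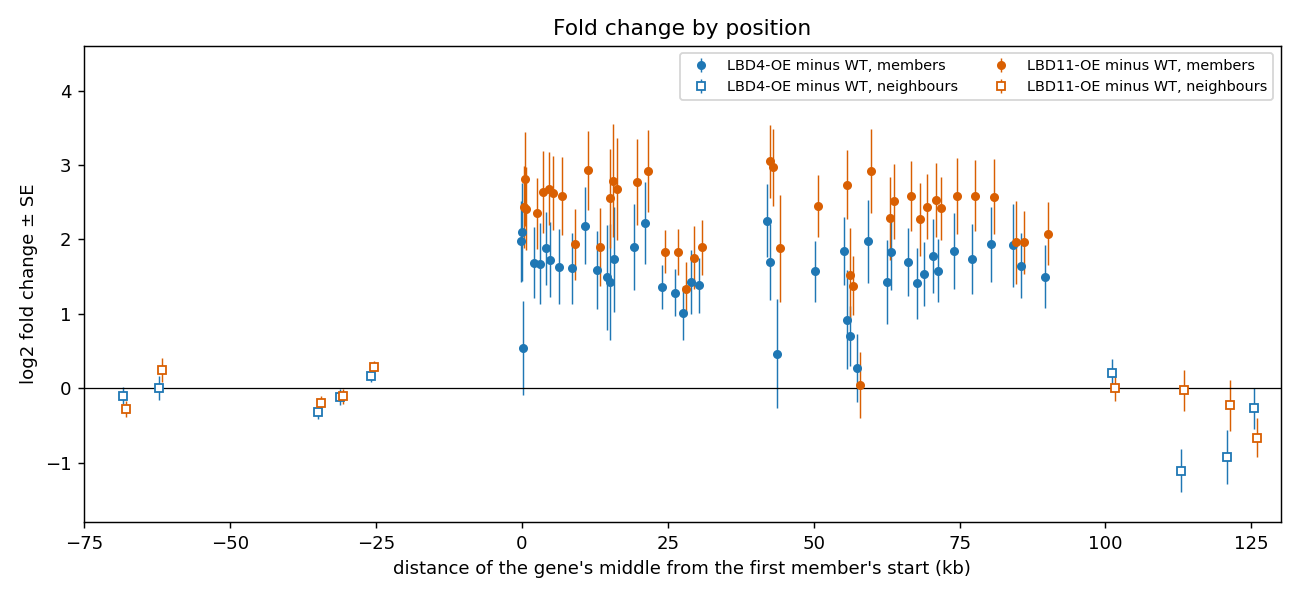
log2 fold change against WT with SE (y axis) by distance of each gene's middle from the first member's start in kb (x axis), filled circles for the 43 members and open squares for the 9 neighbours. Members lie between 0.04 and 3.05 and neighbours between -1.11 and 0.29.

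Going along the run, the first 16 members, from Potri.013G161900 to Potri.013G141700, filled 22.2 kb. Their log2 fold changes in LBD11-OE lay between 1.90 and 2.93 (median 2.63), and those in LBD4-OE between 0.54 and 2.22 (median 1.71). The stretch opens with 3 small plus-strand models, Potri.013G161900, Potri.013G162000 and Potri.013G162100, of 252, 120 and 117 bp. It goes on with a block of minus-strand models (Potri.013G162200 to Potri.013G162700), then Potri.013G162800 on the plus strand and Potri.013G162900 on the minus strand. Potri.013G163000, Potri.013G163100, Potri.013G163200, Potri.013G163300 and Potri.013G141700 close it on the plus strand.

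Within this stretch Potri.013G162800 (15577474 to 15578971, plus strand, 1497 bp) had the largest change in LBD11-OE. It stood at 8.06, 3.03, 4.88, 5.32 and 2.29 CPM in WT, between 15.3 and 64.8 CPM in LBD11-OE (median 32.2) and between 4.44 and 51.0 CPM in LBD4-OE. All 9 LBD11-OE libraries and 7 of the 8 LBD4-OE libraries exceeded the highest WT library, LBD4-OE-17 replicate 1 being the exception. The log2 fold changes were 2.93 (SE 0.53) and 2.19 (SE 0.52).

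Potri.013G162700 (15575252 to 15576701, minus strand, 1449 bp) was the most counted member. It stood at 62.9, 19.7, 28.3, 37.6 and 19.99 CPM in WT, at 126, 184 and 229 CPM in LBD4-OE-11, at 50.2 and 56.8 CPM in LBD4-OE-14 and at 27.7, 84.9 and 65.9 CPM in LBD4-OE-17. In LBD11-OE it stood at 123, 130 and 69.5 CPM in line 1, at 268, 167 and 109 CPM in line 2 and at 95.2, 92.0 and 106 CPM in line 14. LBD4-OE-11 and LBD11-OE-2 were the highest lines, and LBD4-OE-14 lay within the WT range. Its share of the summed level was 17.9% ± 2.11 in WT (SD, n = 5), 22.9% ± 0.544 in LBD4-OE-11 (SD, n = 3), 22.2% ± 0.810 in LBD11-OE-2 (SD, n = 3) and 14.9% ± 1.83 in LBD11-OE-14 (SD, n = 3).

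Next came 5 members over 8.4 kb, Potri.013G141912, Potri.013G142124 and Potri.013G142336 on the plus strand and Potri.013G142548 and Potri.013G142760 on the minus strand. They had smaller changes than most members on both sides, a stretch singled out after its values were seen and so without a test. The log2 fold changes in LBD11-OE lay between 1.34 and 1.89 (median 1.84), and those in LBD4-OE between 1.02 and 1.43 (median 1.36). The highest level among them was that of Potri.013G142760, with 14.5 ± 4.58 CPM in WT (SD, n = 5), 37.9 ± 21.6 CPM in LBD4-OE (SD, n = 8), then 53.9 ± 16.8 CPM in LBD11-OE (SD, n = 9). Potri.013G142124 stood at 15.2, 6.07, 5.31, 10.2 and 4.09 CPM in WT and at 20.8 to 40.0 CPM in LBD11-OE. All LBD11-OE libraries thus exceeded all WT libraries for it.

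The remaining 22 members covered 48.3 kb beyond the widest gap. Their median log2 fold changes were 2.45 in LBD11-OE and 1.67 in LBD4-OE. The first of them, Potri.013G142972, had the largest change of the run, 3.05 (SE 0.49) in LBD11-OE and 2.25 (SE 0.49) in LBD4-OE. It is a low gene, at 0.492 ± 0.191 CPM in WT (SD, n = 5), 2.34 ± 1.57 CPM in LBD4-OE (SD, n = 8), then 4.06 ± 1.54 CPM in LBD11-OE (SD, n = 9). Potri.013G138900 and Potri.013G139112 follow on the same strand. The longest model, Potri.013G143400, had 1.57 (SE 0.41) and 2.45 (SE 0.42). Potri.013G136466 had 1.84 (SE 0.46) and 2.74 (SE 0.46), whereas Potri.013G137077, which overlaps it on the same strand, had 0.92 (SE 0.66) and 1.53 (SE 0.63), and the adjoining Potri.013G137688 had 0.71 (SE 0.40) and 1.38 (SE 0.40).

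Further along, Potri.013G138201 stood at 7.30, 3.15, 4.78, 6.07 and 3.92 CPM in WT, at 5.38 to 58.5 CPM in LBD4-OE and at 15.8 to 75.7 CPM in LBD11-OE. Its LBD11-OE libraries all lay above WT, with a log2 fold change of 2.92 (SE 0.57). It made up 2.84% ± 0.389 of the summed level in WT (SD, n = 5) and 5.18% ± 0.661 in LBD11-OE (SD, n = 9). After it came the small plus-strand models Potri.013G138100 and Potri.013G138690. A row of 8 minus-strand members ran from Potri.013G138000 through Potri.013G137900, Potri.013G138490, Potri.013G139080, Potri.013G139670, Potri.013G140260 and Potri.013G140850 to Potri.013G142232. These 8 were alike in size of change, between 2.27 and 2.59 in LBD11-OE and between 1.41 and 1.93 in LBD4-OE. Of the last 3 of the row, each overlaps the next on the same strand, so the assignment of reads between them is uncertain. The run ends with Potri.013G142332, Potri.013G142100 and Potri.013G142201, at 1.96, 1.96 and 2.08 in LBD11-OE.

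Potri.013G138300 (15624275 to 15625384, minus strand, 1109 bp) stood out in the middle of the run. It stood at 75.5, 26.2, 59.1, 33.2 and 23.9 CPM in WT, at 88.8, 89.4 and 92.8 CPM in LBD4-OE-11, at 28.5 and 28.8 CPM in LBD4-OE-14 and at 25.8, 32.4 and 36.4 CPM in LBD4-OE-17. In LBD11-OE it stood at 23.1, 39.0 and 32.6 CPM in line 1, at 77.5, 55.4 and 97.2 CPM in line 2 and at 27.2, 22.6 and 29.6 CPM in line 14. It was high in LBD4-OE-11, LBD11-OE-2 and WT replicates 1 and 3. LBD4-OE-11 lay above WT without overlap, whereas the other lines overlapped WT. Its log2 fold changes were 0.28 (SE 0.46) in LBD4-OE and 0.04 (SE 0.44) in LBD11-OE, and they were negative under some alternatives, down to -0.52 in LBD4-OE without line LBD4-OE-11 and to -0.59 in LBD11-OE without line LBD11-OE-2. Its share of the summed level was 23.5% ± 5.62 in WT (SD, n = 5), 11.7% ± 3.37 in LBD4-OE (SD, n = 8) and 6.97% ± 5.07 in LBD11-OE (SD, n = 9).

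Potri.013G139112 (15610536 to 15611882, plus strand, 1346 bp) was low in LBD4-OE-11, LBD11-OE-2 and WT replicate 3. It stood at 1.07, 0.640, 0.0708, 1.10 and 0.682 CPM in WT, the third being replicate 3 with 2 counts. LBD4-OE-11 had 0.249, 0.604 and 0.530 CPM and LBD11-OE-2 had 0.654, 0.169 and 0.353 CPM, whereas LBD11-OE-1 had 6.12, 4.12 and 2.14 CPM and LBD11-OE-14 had 2.58, 2.52 and 5.33 CPM. LBD4-OE-14 had 1.14 and 1.79 CPM and LBD4-OE-17 had 0.236, 2.19 and 1.17 CPM. The 7 libraries that stood apart over genes outside the run had 0.0708 to 0.654 CPM and the other 15 had 0.236 to 6.12 CPM, so they overlapped. It was also the single member for which the LBD11-OE lines differed in edgeR (adjusted p = 0.0411), at 4.13 ± 1.99, 0.392 ± 0.245 and 3.47 ± 1.60 CPM in lines 1, 2 and 14 (SD, n = 3 each). Within the 15 libraries, which hold no library of LBD11-OE-2, 0 members passed.

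Line by line, LBD4-OE-11 resembled the LBD11-OE lines more than the other LBD4-OE lines in size of change. The median log2 fold change against WT was 2.40 in LBD4-OE-11, 0.85 in LBD4-OE-14 and 0.95 in LBD4-OE-17, the last falling to 0.54 without LBD4-OE-17 replicate 2. It was 2.37, 2.50 and 2.43 in LBD11-OE lines 1, 2 and 14. All these lines share the WT libraries, and their libraries entered the contrasts that chose the run. Comparisons of a line with WT are therefore a description, and nothing is read from their excess over all genes. Every LBD4-OE-11 library exceeded the highest WT library for 37 members (5.39% of all genes), both LBD4-OE-14 libraries for 18 (11.6%) and all LBD4-OE-17 libraries for 1 (6.55%). In the LBD11-OE lines 1, 2 and 14 this held for 34 (12.8%), 38 (10.7%) and 39 (15%) members. Without LBD4-OE-11 the median of LBD4-OE minus WT was 0.95, and 1 member was called higher in edgeR in place of 23, where 2.23% of all genes were. With a library left out in turn that count was 2 to 31, and it was 15 or fewer without any of the WT libraries, LBD4-OE-11 replicate 2 or 3, LBD4-OE-17 replicate 2, LBD11-OE-1 replicate 2, LBD11-OE-2 replicate 2 or LBD11-OE-14 replicate 2 or 3. It was 0 with the replicate number or the line as a block.

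**Figure D4:**
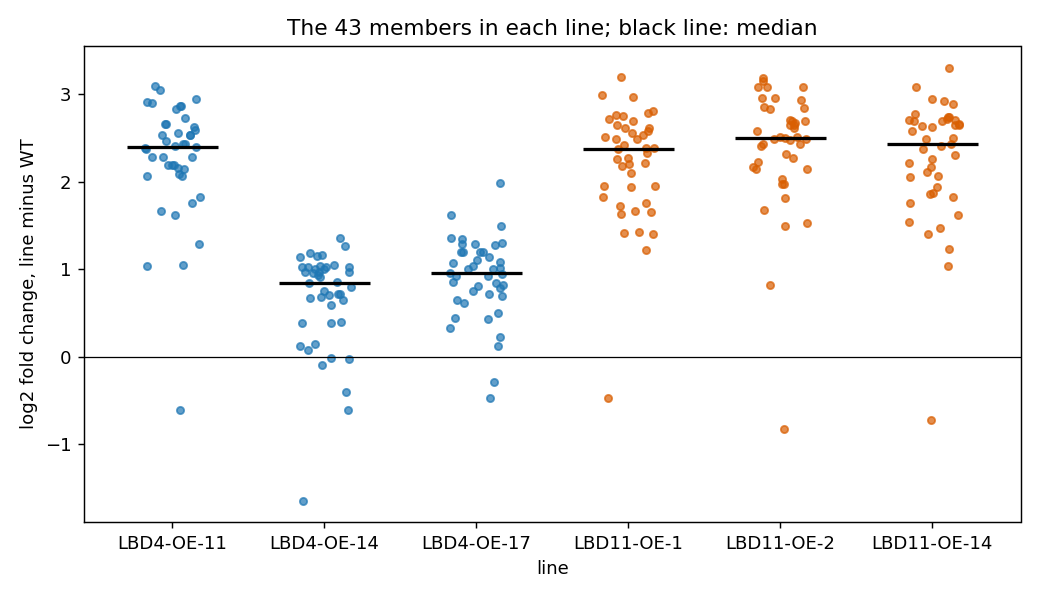
log2 fold change of each line minus WT (y axis) by line (x axis), a point for each of the 43 members and a black line at their median. The medians are 2.40, 0.85 and 0.95 for the LBD4-OE lines and 2.37, 2.50 and 2.43 for the LBD11-OE lines.

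The difference among the 3 LBD4-OE lines passed the joint edgeR test for 3 of 43 members, where 0.194% of all 26271 genes tested did. These were Potri.013G163200 (adjusted p = 0.0107), Potri.013G162900 (adjusted p = 0.0237) and Potri.013G138100 (adjusted p = 0.0329). Potri.013G163200 stood at 1.29, 1.18 and 2.27 CPM in LBD4-OE-11, at 0.222 and 0.163 CPM in LBD4-OE-14 and at 0.0263, 0.213 and 0.278 CPM in LBD4-OE-17. Potri.013G162900 had 3.44, 5.47 and 5.98 CPM in LBD4-OE-11, 1.27 and 0.587 CPM in LBD4-OE-14 and 0.525, 1.84 and 1.70 CPM in LBD4-OE-17. Potri.013G138100 had 2.49, 3.43 and 4.77 CPM, then 0.604 and 0.685 CPM, then 0.420, 1.04 and 0.864 CPM. In all 3 genes the LBD4-OE-11 libraries lay above the others of the construct without overlap.

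Without LBD4-OE-11 replicate 3, 0 members passed this test, without LBD4-OE-11 replicate 2 or LBD4-OE-14 replicate 2 1 did, and without each of the other libraries 2 to 4 did. LBD4-OE-11 had the highest mean of the LBD4-OE lines for 42 of 43 members, which held for 36.8% of all genes. Its median difference was 1.63 on the log2 scale against LBD4-OE-14 and 1.38 against LBD4-OE-17. For the 40 members that missed the threshold, the lowest adjusted p was 0.127. At an unadjusted p under 0.05 the count was 31 members, against 9.95% of all genes. Members varied together across libraries, so counts of members that differ among lines are not counts of independent results. The share over all genes is no like background for them. Among the LBD11-OE lines 1 member passed, against 1.36% of all genes. This count was 0 without any LBD11-OE library other than LBD11-OE-1 replicate 3, without either LBD4-OE-14 library, and without LBD4-OE-11 replicate 2 or 3, LBD4-OE-17 replicate 3 or WT replicate 4. It was 2 without WT replicate 1. At an unadjusted p under 0.05 the count was 3, against 11.1% of all genes.

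LBD11-OE was compared directly with LBD4-OE. The choice of the interval did not use this contrast itself. The contrast is the difference of the fold changes against WT that chose the interval, from the same libraries. It is therefore not independent of that choice. Of the 43 members 42 were higher in LBD11-OE, with a median log2 difference of 0.76 (lowest -0.23, highest 1.87), against a median near 0 over all 25626 genes. In edgeR 2 members passed the threshold as higher, where 8.08% of all genes did, and 0 as lower, where 8.88% did. At this threshold, in edgeR with all libraries, the members' share called was thus not above the background. The median SE of the difference was 0.38, and 19 members had an unadjusted p under 0.05, all of them higher in LBD11-OE, against 29.4% of all genes in both directions.

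Of those 2, Potri.013G162100 (15567624 to 15567741, plus strand) had a log2 difference of 1.87 (SE 0.45, adjusted p = 0.00394 in edgeR). It had 8, 4, 1, 2 and 0 counts in WT, 1 to 9 counts in LBD4-OE and 5 to 35 counts in LBD11-OE. The gene met the count minimum only through LBD11-OE libraries. The rule thus favours a member high in LBD11-OE, and nothing is read from its p-values. Potri.013G162000, Potri.013G163000, Potri.013G137077 and Potri.013G163200 also reached 5 libraries only with those of LBD11-OE counted. Nothing is read from their values in this contrast either. For Potri.013G162100 LBD4-OE and WT overlapped almost wholly and LBD11-OE reached higher, at a depth of few counts. The adjusted p ran from 0.00108 to 0.0309 over the 36 alternatives in which the gene was tested. It did not pass the expression filter without line LBD11-OE-14 or with only the groups compared, where it has no value. Potri.013G138900 (15609747 to 15610293, plus strand) had a difference of 1.27 (SE 0.39, adjusted p = 0.0271 in edgeR). It stood at 3.82, 5.47 and 7.36 CPM in LBD4-OE-11, at 3.11 and 2.38 CPM in LBD4-OE-14 and at 1.55, 6.10 and 4.66 CPM in LBD4-OE-17. In LBD11-OE it had 20.3, 12.0 and 4.24 CPM in line 1, 9.16, 5.79 and 2.58 CPM in line 2 and 9.25, 13.9 and 16.3 CPM in line 14. LBD11-OE-1 and LBD11-OE-2 overlapped LBD4-OE, and LBD11-OE-14 lay above it. The adjusted p ran from 0.00764 to 0.141 over the alternatives, and the call was lost in 10 of 38.

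This comparison depended on LBD4-OE-11. Without that line 37 members were higher in LBD11-OE in edgeR, where 6.49% of all genes were, with a median difference of 1.48. Within the 15 libraries other than LBD4-OE-11, LBD11-OE-2 and WT replicate 3, a restriction added after the data were seen, 34 members were, where 6.98% of all genes were. Leaving out LBD4-OE-11 replicate 3 alone gave 20 members. The count was 5 without LBD11-OE-1 replicate 3 or LBD11-OE-2 replicate 3, and 1 without LBD11-OE-1 replicate 1, LBD11-OE-14 replicate 3 or either LBD4-OE-14 library. Potri.013G143400, with the lowest adjusted p among the members that missed the threshold (0.0632), had 0.88 with LBD4-OE-11 and 1.32 without it. Under limma voom 21 members passed, where 8.31% of all genes did. The 37 include Potri.013G162000, Potri.013G162100, Potri.013G163000 and Potri.013G163200, which met the count minimum only with LBD11-OE libraries counted. Nothing is read from their calls under any of these settings. Members varied together across libraries, so the counts of this paragraph are not counts of independent results.

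**Figure D5:**
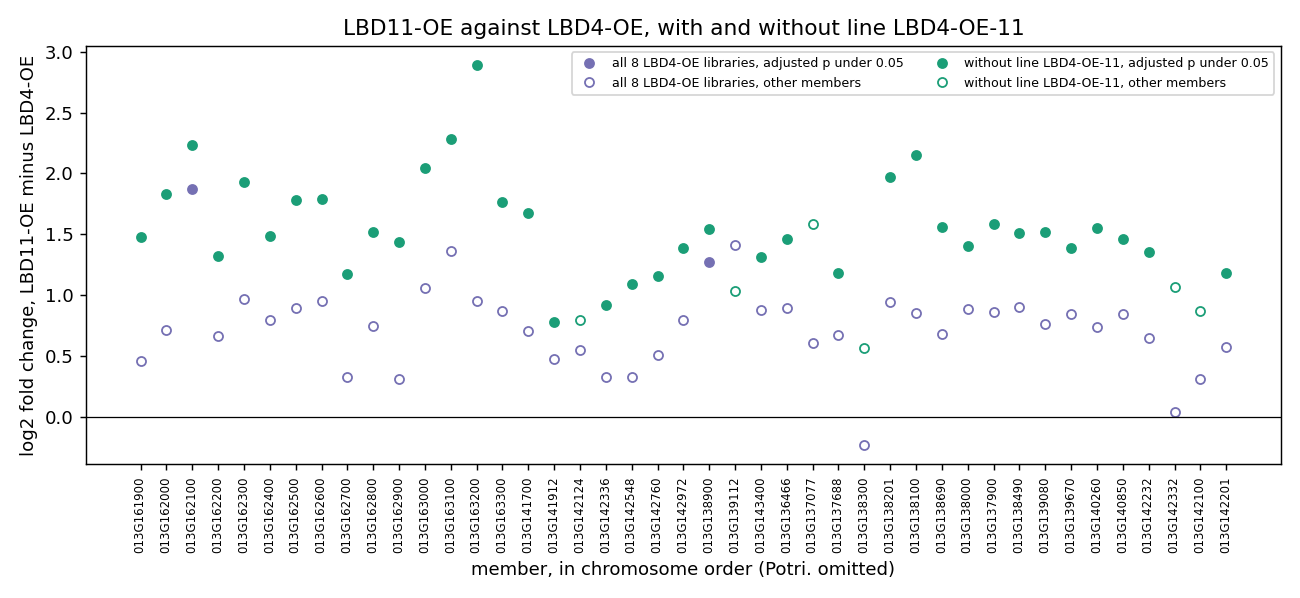
log2 fold change of LBD11-OE minus LBD4-OE (y axis) for the 43 members in chromosome order (x axis), with all LBD4-OE libraries and without line LBD4-OE-11, filled where the adjusted p in edgeR is under 0.05. With all libraries 2 members are filled, and without the line 37 are.

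Replicates of a line varied together over the run. The ratio of the highest to the lowest summed level was 2.64 in WT, 1.89 in LBD4-OE-11, 1.03 in LBD4-OE-14, 2.99 in LBD4-OE-17, 2.56 in LBD11-OE-1, 2.44 in LBD11-OE-2 and 1.41 in LBD11-OE-14. The SD of log2 CPM among replicates of a group was 0.60 at the median for members and 0.18 for all genes. At a mean of at least 5 CPM it was 0.65 for 27 members and 0.15 for 18254 genes. In the 5 lines with 3 libraries many single members repeated the order of the summed level. Each member is part of that sum, so some of this likeness is built in. In LBD11-OE-1 40 members had the same replicate order as the sum (19.7% of all genes), in LBD4-OE-17 38 (16.2%), in LBD11-OE-2 37 (14.4%), in LBD4-OE-11 34 (21.7%) and in LBD11-OE-14 29 (18.2%). In LBD4-OE-14, whose libraries gave nearly the same sum, 23 members were highest in the same library as the sum (49.1% of all genes). In WT 29 members shared its highest replicate (18.8%) and 17 its lowest (18.4%). In LBD4-OE-17 all 43 members had their lowest value in replicate 1 (31.0% of all genes).

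Likeness between members was measured by Pearson's r between a gene's log2(CPM + 0.5) and the mean of the standardised members over the 22 libraries, with no test. It exceeded 0.9 for 36 members and was lowest for Potri.013G138300 (0.33), Potri.013G139112 (0.37) and Potri.013G162100 (0.78). With the line means removed, the median r of the members was 0.93 and that of all other genes 0.00420. In both measures each member is part of the mean it is set against, which raises its r, whereas other genes are not. Elsewhere in the genome the genes most like the run were Potri.007G062242 (r = 0.99, Spearman's rho = 0.99), Potri.011G113784, Potri.011G113575, Potri.007G062262 and Potri.007G061781 (r = 0.97 or more). Potri.007G062242, on chromosome 7, stood at 27.7 ± 12.5 CPM in WT (SD, n = 5), 101.6 ± 73.5 CPM in LBD4-OE (SD, n = 8), then 188.5 ± 87.4 CPM in LBD11-OE (SD, n = 9). The genes most opposed to it were Potri.018G100700 (r = -0.91, rho = -0.92), Potri.007G085800, Potri.001G215800, Potri.005G176400 and Potri.013G041400. Without the 2 libraries farthest from the median of the run's score, r was still 0.99 for Potri.007G062242 and -0.89 for Potri.018G100700. Line and construct differences are part of these values, as all 22 libraries enter them.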

How the data were processed

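Poly(A) RNA of stem internodes was sequenced as paired ends (Illumina HiSeq), per the labels' protocols. The authors deposited 1 file per library with raw whole-number read counts per gene from HTSeq, per the labels, for 34699 genes. Trimmomatic, HISAT2, HTSeq, Cufflinks and MultiQC are named in the submitters' processing notes. Versions, genome build, strand setting and the handling of reads with several matches are not given in the sources used here. Coordinates are those of the files, and spans are end minus start.

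Counts were tested as deposited in edgeR 4.0.16 (R 4.3.3), with TMM scaling, the default expression filter (minimum count 10, minimum total 15), robust dispersions and the quasi-likelihood F test. Constructs were compared in a model of 3 groups (25626 genes) and lines in a model of 7 groups (26271 genes), always over all 22 libraries. P-values were Benjamini-Hochberg adjusted over all genes tested, with a threshold of 0.05. CPM were computed with TMM-scaled library sizes, and SDs are over libraries. Non-overlap, order and rank shares refer to the 25705 genes with at least 10 counts in 5 or more libraries. The scripts were tested on simulated data. Counts of all 26 replicate pairs differed by more than sampling noise (chi-square per degree of freedom at least 5.78), so no library was merged. Alternatives used RLE or total-count scaling, other filters, DESeq2 1.42.0, limma 3.58.1, blocks, and left-out lines and libraries.

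The members, the lists and the 7 libraries that stand apart were chosen with earlier results of these data known. Genes named are the members, the 5 nearest neighbours on each side that meet the count minimum (4 on the right), and the 5 genes elsewhere most alike and the 5 least alike. The Arabidopsis transgenes, gene names and sequences were not used here.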

Additional observations from a re-analysis of the deposited data

Results flagged for a closer look

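Within WT or a construct, 10 of 129 member-by-group sets of libraries held a library far from the others by Dixon's criterion, and chance flags about 1 in 20. Members varied together over the same libraries, so the 129 sets are not independent and nothing is read from that rate. The sets of a construct also pool its 3 lines. In LBD11-OE, replicate 1 of LBD11-OE-2 stood high for Potri.013G162700 (268.2 CPM, others 69.5 to 167.3), Potri.013G142336 (12.1 CPM, others 4.41 to 8.16), Potri.013G142548 (6.96 CPM, others 1.77 to 4.06) and Potri.013G138690 (9.995 CPM, others 2.005 to 5.93). This library also had the highest summed level of the run. Replicate 3 of LBD11-OE-14 stood high for Potri.013G163000 (1.43 CPM, others 0.267 to 0.644). In WT, replicate 1 stood high for Potri.013G138100 (1.18 CPM, others 0.474 to 0.566) and Potri.013G138000 (11.8 CPM, others 3.65 to 5.55). Replicate 3 of WT stood high for Potri.013G137077 (0.319 CPM, others 0.0341 to 0.113) and Potri.013G138690 (1.91 CPM, others 0.512 to 0.902), and replicate 4 for Potri.013G140260 (3.87 CPM, others 1.47 to 2.14). Differences between groups passed the edgeR tests for 3 members among the LBD4-OE lines, for 1 member among the LBD11-OE lines and for 2 members between LBD11-OE and LBD4-OE. What lies behind any of these values was not tested.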

How the results depend on the processing

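In the comparisons of constructs every member kept its direction wherever it was called, in all 38 alternatives run for them. The median for LBD11-OE minus WT stayed between 2.27 and 2.64 and its count of members past the threshold between 34 and 42. The line medians moved by less than the replicate spread of 0.61, though that of LBD4-OE-17, 0.95 as reported, was 0.54 without its replicate 2 and 1.28 without its replicate 1. For LBD4-OE minus WT the median was 0.95 without line LBD4-OE-11, 0.93 within the 15 other libraries and 1.33 to 1.84 with a library left out. Its count of members past the threshold, 23 as reported, was 33 with DESeq2, 29 and 24 without LBD4-OE-17 and LBD4-OE-14, 12 with no filter, 3 with limma voom, 0 with a random block for line, 1 with only the groups compared, 1 without LBD4-OE-11, 13, 12 and 7 without LBD11-OE-1, LBD11-OE-2 and LBD11-OE-14, 1 within the 15 libraries and 2 to 31 with a library left out.

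For LBD11-OE minus LBD4-OE the median was 1.48 without LBD4-OE-11 and 1.49 within the 15 libraries, and 0.61 to 1.10 with a library left out. The count of members higher, 2 as reported, was 4 with DESeq2, 21 with limma voom, 8 with a random block for line, 1 with only the groups compared, 37 without LBD4-OE-11, 1 each without LBD4-OE-14, LBD4-OE-17 and LBD11-OE-1, 4 without LBD11-OE-2, 0 without LBD11-OE-14, 34 within the 15 libraries and 1 to 20 with a library left out. The count for the LBD4-OE lines, 3 as reported, was 11 with DESeq2, 1 with limma voom, 0 within the 15 libraries and 0 to 4 with a library left out. That for the LBD11-OE lines, 1 as reported, was 0 with no filter, 2 with DESeq2, 0 within the 15 libraries and 0 to 2 with a library left out. Fits without a library or line hold fewer samples, and otherwise the cause was not tested.

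Replicate numbers did not pair the libraries: same-numbered libraries of different groups had a median correlation of -0.017, and 7 of 22 libraries correlated best with their own number. With the replicate block, 0 members passed for LBD4-OE minus WT, 1 for LBD11-OE minus LBD4-OE and 1 among the LBD4-OE lines. Depth limits the 7 members under 1 CPM most.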

Other observations

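The 50 genes outside the run with the highest r to it were looked at after their values were seen, so what follows is given as values. Their r lay between 0.85 and 0.99, and their median span was 629 bp. All 50 had means that rose from WT to LBD4-OE to LBD11-OE, an order that picking genes for likeness to the run favours. Of these genes 37 lay within 200 kb of another, 16 on chromosome 7 between positions 6957700 and 7181695 and 10 on chromosome 11. A further 5 lay on chromosome 13, between positions 5009266 and 6300624, and 4 on chromosome 19 between 4048129 and 4057760. The r to the run exceeded 0.9 for 30 genes outside it.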
